A study of Mus musculus with 12 samples.

Results

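The homeostatic astrocyte genes are 35 genes that resting astrocytes use to keep the fluid around neurons stable, chosen by name from what is known of them. All 35 were found, each as 1 row of the 23382 rows in the deposited table, through the RefSeq transcripts that the row names give. They fall into 6 groups by role, which order the results below. The libraries were made from mouse hippocampus, and the 4 groups of 3 libraries were control mice given vehicle, control mice given Δ9-THC, aDN-DISC1 mutant mice given vehicle and aDN-DISC1 mutant mice given Δ9-THC. All groups share a C57BL/6 background. THC is the main psychoactive compound of cannabis, while DISC1 is a scaffold protein whose gene has been tied to psychiatric illness. The series title places the exposure in adolescence, the outcome in adulthood and the mutation in astrocytes. The promoter that drives the mutant protein, the dose, the age at dissection, the sex and whether the controls carry part of the transgene are not given in the sources used here. For control libraries the genotype comes from the title alone.

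Astrocytes take up synaptic glutamate, turn it into glutamine and hand it back to neurons. They buffer potassium, move water and bicarbonate at the endfeet that wrap blood vessels, and share ions and metabolites through gap junctions. They also store glycogen, activate thyroid hormone and secrete lipoproteins and proteins that act on synapses. When astrocytes become reactive, these functions can weaken while filament and immune genes come up, so the level of the homeostatic genes is a usual readout of astrocyte state.

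Libraries held 33165903 to 41389957 expected counts, and the 35 genes took 1.34% of them in mutant THC 3 to 1.63% in mutant THC 1. Each group has 3 libraries, and nothing says that every library is a separate mouse, so the p-values speak only of the spread among libraries, which may be technical. The library numbers in the labels run from 6 to 11 for vehicle and are 1 to 5 and 12 for THC. What these numbers stand for is not given. With the exception of library 12 (mutant THC 2), library number and treatment cannot be told apart. Disc1 itself was at 1.42 to 3.04 CPM (expected counts scaled to a library of 1e+06 with TMM factors) in the 12 libraries and overlapped between genotypes, so it did not check the labels. The labels do not say whether a count of the mouse gene would see the mutation. The choroid plexus gene Ttr was above 1000 CPM in 6 libraries (control THC 2, all of mutant vehicle, mutant THC 1 and 3) and at 20.1 to 84.4 CPM in the other 6. The striatal gene Drd2 was at 52.1 CPM in mutant THC 3, at 4.57 CPM in mutant vehicle 3 and at 0.421 to 1.62 CPM elsewhere. These are whole-tissue libraries, in which fewer astrocytes and less RNA per astrocyte cannot be told apart.

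The astrocyte genes were abundant in this tissue, and their levels ran from 1.37 to 1051 CPM per kilobase of transcript. All 35 passed the filter on low counts. Per kilobase of transcript, Apoe was highest in control vehicle at 1051 ± 103 CPM per kb (SD, n = 3), followed by Sparcl1 at 752 ± 57.1, Glul at 723 ± 59.9 and Slc1a2 at 691 ± 21.9. The Glul libraries overlapped those of Sparcl1 and of Slc1a2, its neighbours in this order. Aldoc and Clu came next at 479 ± 47.6 and 466 ± 35.4 CPM per kb, and did not differ beyond their spread. The lowest were Ndp at 3.98 ± 0.116, the transcription factor gene Sox9 at 3.21 ± 0.592 and Chrdl1 at 1.37 ± 0.151 CPM per kb. Sox9 rested on 419 to 929 counts per library, Ndp on 210 to 333 and Chrdl1 on 151 to 294, so counting error is largest for these genes.

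**Figure D1:**
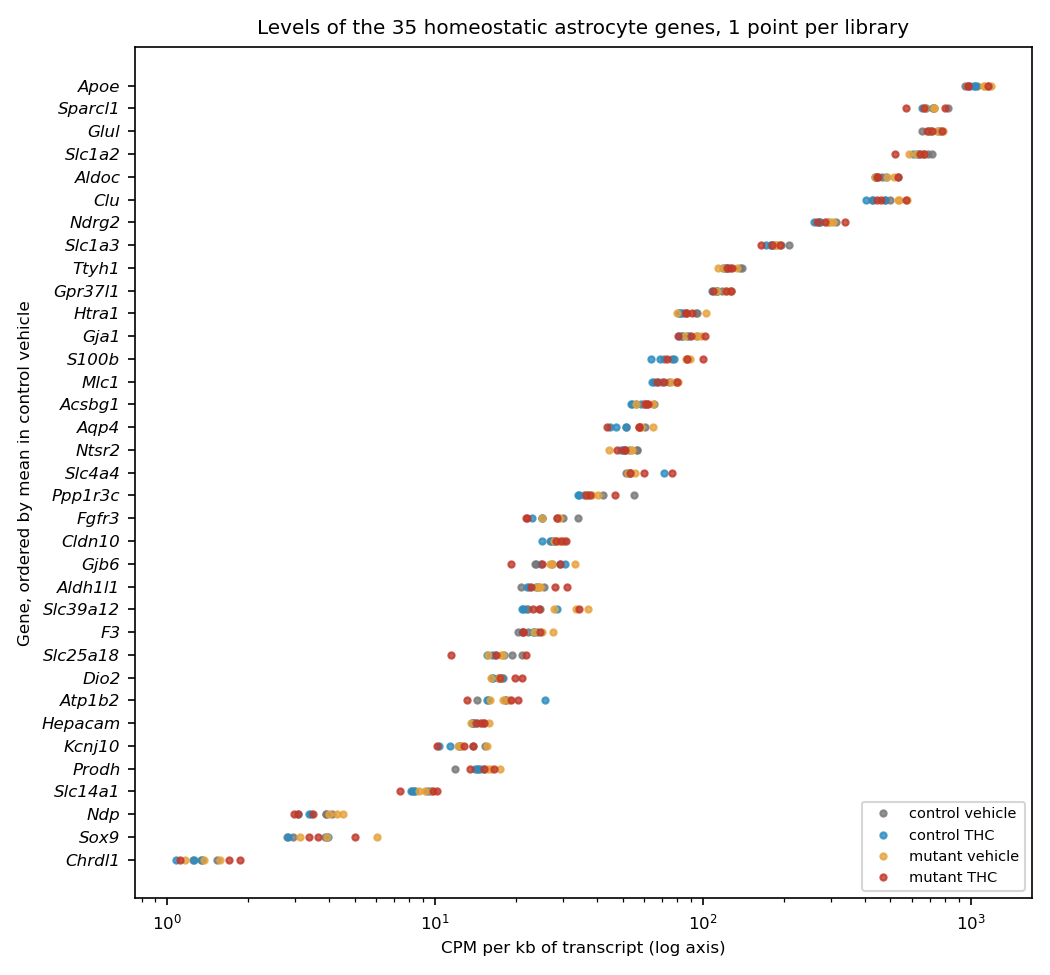
Level of each of the 35 genes in CPM per kilobase of transcript on a log axis, with 1 point per library coloured by group and genes ordered by their mean in control vehicle. The points of a gene lie close together beside the distance between genes, from Chrdl1 at the bottom to Apoe at the top.

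The median spread between libraries was slightly larger for these genes than for all genes at or above the lowest member's mean level. Over all 12 libraries the coefficient of variation of CPM had a median of 9.34% over the 35 genes, beside 8.55% over the 11549 genes at or above the lowest member's mean level. Hepacam varied least at 5.11% and Sox9 most at 25.2%. Over the control vehicle libraries alone, Slc4a4 varied least at 1.99% and Ppp1r3c most at 22.0%.

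The glutamate group holds the transporters and enzymes of the glutamate cycle. Slc1a2, the main glutamate transporter of astrocytes, was at 3494, 3613 and 3723 CPM in control vehicle and 3172, 3268 and 3329 in control THC. It was at 3250, 3464 and 3060 CPM in mutants on vehicle and 3497, 3376 and 2723 in mutants on THC. Control vehicle thus lay above control THC and mutant vehicle without overlap, while mutant THC spanned nearly the whole range, with its lowest value in the library rich in striatal markers. Slc1a3, the second glial glutamate transporter, ranged from 683 CPM in mutant THC 3 to 869 in control vehicle 1. Glul, the glutamine synthetase gene, ranged from 1826 to 2200 CPM, and Slc25a18, a mitochondrial glutamate carrier gene, from 21.8 to 41.5 CPM. The ratio of Slc1a2 to Slc1a3 in CPM per kb was 3.57 ± 0.389 in controls on vehicle, 3.51 ± 0.190 in controls on THC, 3.33 ± 0.193 in mutants on vehicle and 3.40 ± 0.201 in mutants on THC (SD, n = 3). The balance of the 2 transporters therefore differed between groups by less than its spread. All 4 genes had log2 fold changes below 0 after THC in each genotype (-0.20 to -0.05 in controls and -0.06 to -0.03 in mutants), and none of these passed the test.

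The gap junction group is the connexin pair that couples astrocytes into a network. Gja1, which encodes the more abundant connexin, was at 291, 256 and 267 CPM in control vehicle and 271, 255 and 249 in control THC. It was at 289, 261 and 302 CPM in mutants on vehicle and 311, 277 and 247 in mutants on THC. All 4 groups overlapped in Gja1. Gjb6, which encodes the second connexin, was at 57.3, 49.8 and 49.4 CPM in control vehicle and 64.4, 52.1 and 61.6 in control THC. In mutants Gjb6 was at 70.2, 56.6 and 57.2 CPM under vehicle and 61.5, 52.7 and 40.3 under THC. In controls 2 THC libraries lay above all vehicle libraries, whereas in mutants 2 THC libraries lay below all vehicle libraries. The ratio of Gja1 to Gjb6 in CPM per kb was 3.57 ± 0.111 in controls on vehicle, 3.00 ± 0.313 in controls on THC, 3.21 ± 0.399 in mutants on vehicle and 3.76 ± 0.394 in mutants on THC (SD, n = 3).

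Channels and transporters for water, ions and small solutes form the largest group, with 9 genes. Aqp4, the water channel gene of the endfeet, was at 305, 260 and 293 CPM in control vehicle and 226, 239 and 259 in control THC. It was at 296, 295 and 328 CPM in mutants on vehicle and 291, 290 and 222 in mutants on THC. In each genotype the THC libraries all lay below the vehicle libraries, closely so at 259 beside 260 CPM in controls and 291 beside 295 in mutants. Kcnj10, the potassium channel gene that buffers potassium around synapses, was at 66.7, 74.9 and 83.0 CPM in control vehicle and 55.6, 61.1 and 66.1 in control THC. Its mutant values overlapped, at 67.5, 84.1 and 65.5 CPM under vehicle and 74.7, 69.2 and 54.6 under THC.

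Mlc1 and Hepacam encode a pair of membrane proteins that sit together at endfoot junctions and whose loss causes a vacuolating white matter disease. Mlc1 was at 221, 207 and 194 CPM in control vehicle and 179, 188 and 182 in control THC, and at 223, 210 and 224 in mutants on vehicle and 222, 199 and 187 in mutants on THC. Control THC lay below control vehicle without overlap, and mutant THC overlapped mutant vehicle. Hepacam stayed between 45.3 and 52.9 CPM in all 12 libraries. Ttyh1, a tweety family membrane protein gene, ranged from 300 to 368 CPM.

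Slc39a12 encodes a zinc importer and had the widest group difference of this role. It was at 65.5, 58.2 and 59.6 CPM in control vehicle and 56.3, 76.4 and 56.9 in control THC. In mutants it was at 73.9, 89.9 and 99.0 CPM under vehicle and 91.7, 62.1 and 65.0 under THC. Its high values were in libraries with high Ttr, where Slc39a12 was at 65.0 to 99.0 CPM, beside 56.3 to 65.5 CPM in the libraries with low Ttr. The bicarbonate cotransporter gene Slc4a4 was at 252 to 295 CPM in 10 libraries and at 349 and 375 in control THC 3 and mutant THC 3. Atp1b2, a sodium pump subunit gene, ranged from 37.3 to 72.9 CPM with its highest value in control THC 3 as well. The urea transporter gene Slc14a1 ranged from 19.6 to 26.7 CPM.

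The metabolic group covers sugar, glycogen, fat, folate, proline and thyroid hormone. Aldoc, the brain aldolase of glycolysis, was at 906, 788 and 751 CPM in controls on vehicle, 820, 742 and 749 in controls on THC, 878, 824 and 745 in mutants on vehicle and 911, 766 and 759 in mutants on THC. The groups overlapped fully. Ppp1r3c, which targets a phosphatase to glycogen, was at 115, 97.5 and 150 CPM in controls on vehicle, 101, 93.0 and 93.5 in controls on THC, 111, 104 and 101 in mutants on vehicle and 128, 103 and 99.8 in mutants on THC. The 150 CPM in control vehicle 3 was its highest value. Aldh1l1, a folate enzyme used as a pan-astrocyte marker, ranged from 63.7 to 95 CPM, and Acsbg1, an acyl-CoA synthetase gene, from 155 to 189 CPM.

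Prodh, the first enzyme of proline breakdown, was at 34.5, 34.0 and 28.2 CPM in control vehicle and 34.9, 36.4 and 33.6 in control THC. It was at 41.5, 38.5 and 37.6 CPM in mutants on vehicle and 39.4, 32.2 and 36.2 in mutants on THC. Mutant vehicle lay above control vehicle without overlap. Prodh was also the only member whose 6 libraries with high Ttr (36.2 to 41.5 CPM) all lay above the 6 with low Ttr (28.2 to 34.9 CPM). The share of all genes split in this way was not computed. Dio2, the enzyme that converts thyroxine into the active thyroid hormone, was at 104, 100.0 and 102 CPM in control vehicle and 103, 95.3 and 94.8 in control THC. It was at 101, 94.0 and 101 CPM in mutants on vehicle and 115, 101 and 122 in mutants on THC. Dio2 stayed within a narrow band in 10 libraries and stood higher in mutant THC 1 and 3.

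Receptors, regulators and identity genes mark the astrocyte lineage. Fgfr3, a growth factor receptor kept by astrocytes from their radial glial precursors, was at 140, 123 and 117 CPM in control vehicle and 103, 103 and 94.5 in control THC. It was at 119, 119 and 103 CPM in mutants on vehicle and 117, 89.4 and 90.5 in mutants on THC. Control THC lay below control vehicle without overlap, and mutant THC 1 kept the mutant groups overlapping. Sox9, which specifies the glial fate, was at 12.2, 11.6 and 16.1 CPM in controls on vehicle, 11.7, 16.5 and 16.2 in controls on THC, 12.9, 25.1 and 16.3 in mutants on vehicle and 20.8, 15.0 and 14.0 in mutants on THC. All groups overlapped in Sox9, and its 2 highest values came from mutant libraries.

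S100b encodes a calcium-binding protein that oligodendrocytes also make. It was at 129, 114 and 106 CPM in control vehicle and 116, 102 and 95.1 in control THC, and at 130, 128 and 132 in mutants on vehicle and 129, 109 and 148 in mutants on THC. Its highest value was in mutant THC 3, which also had the highest summed level of oligodendrocyte markers. Cldn10, a claudin gene, was at 43.5, 40.2 and 38.5 CPM in controls on vehicle, 39.4, 35.9 and 38.9 in controls on THC, 42.5, 41.2 and 39.9 in mutants on vehicle and 44.3, 42.4 and 40.4 in mutants on THC. The mutant THC libraries lay above the control THC libraries by a small margin. The neurotensin receptor gene Ntsr2 ranged from 67.7 to 86.2 CPM, the orphan receptor gene Gpr37l1 from 244 to 287 CPM and Ndrg2 from 543 to 708 CPM.

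The last group is secreted or displayed on the cell surface. Apoe, the main lipid carrier protein of the brain, was at 1625, 1479 and 1335 CPM in controls on vehicle, 1395, 1458 and 1449 in controls on THC, 1673, 1571 and 1571 in mutants on vehicle and 1623, 1372 and 1373 in mutants on THC. Clu, a lipid-binding chaperone that choroid plexus and ependyma also make, was at 898, 861 and 773 CPM in control vehicle and 777, 861 and 735 in control THC. Clu was at 967, 978 and 1045 CPM in mutants on vehicle and 1034, 804 and 833 in mutants on THC. Mutant vehicle lay above control vehicle in Clu without overlap, while Apoe overlapped between genotypes under each treatment and between treatments in each genotype. F3, the tissue factor that starts coagulation, was at 43.7, 41.6 and 38.0 CPM in controls on vehicle, 44.7, 39.5 and 43.4 in controls on THC, 51.5, 43.5 and 46.6 in mutants on vehicle and 45.9, 39.9 and 39.8 in mutants on THC. The synapse-organising protein gene Sparcl1 ranged from 1572 to 2258 CPM, the protease gene Htra1 from 163 to 209 CPM and Chrdl1, a secreted antagonist of bone morphogenetic proteins, from 4.38 to 7.59 CPM.

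Ndp encodes norrin, a secreted ligand of a Frizzled receptor that maintains the blood vessel barrier of retina and brain. It was at 7.98, 7.58 and 7.60 CPM in control vehicle and 6.66, 5.93 and 6.53 in control THC. In mutants it was at 8.74, 8.29 and 7.76 CPM under vehicle and 6.76, 5.97 and 5.73 under THC. Every one of the 6 vehicle libraries (7.58 to 8.74 CPM) lay above every one of the 6 THC libraries (5.73 to 6.76 CPM). Ndp was the only 1 of the 35 genes with this separation by treatment, and 0 of the 35 had it by genotype. The share of all genes with either separation was not computed, so these counts have no background beside them. The Ndp counts were whole numbers in all 12 libraries, and no other gene's exons overlap Ndp in the annotation. Treatment and library number cannot be told apart here either, with the exception of library 12 (mutant THC 2).

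**Figure D2:**
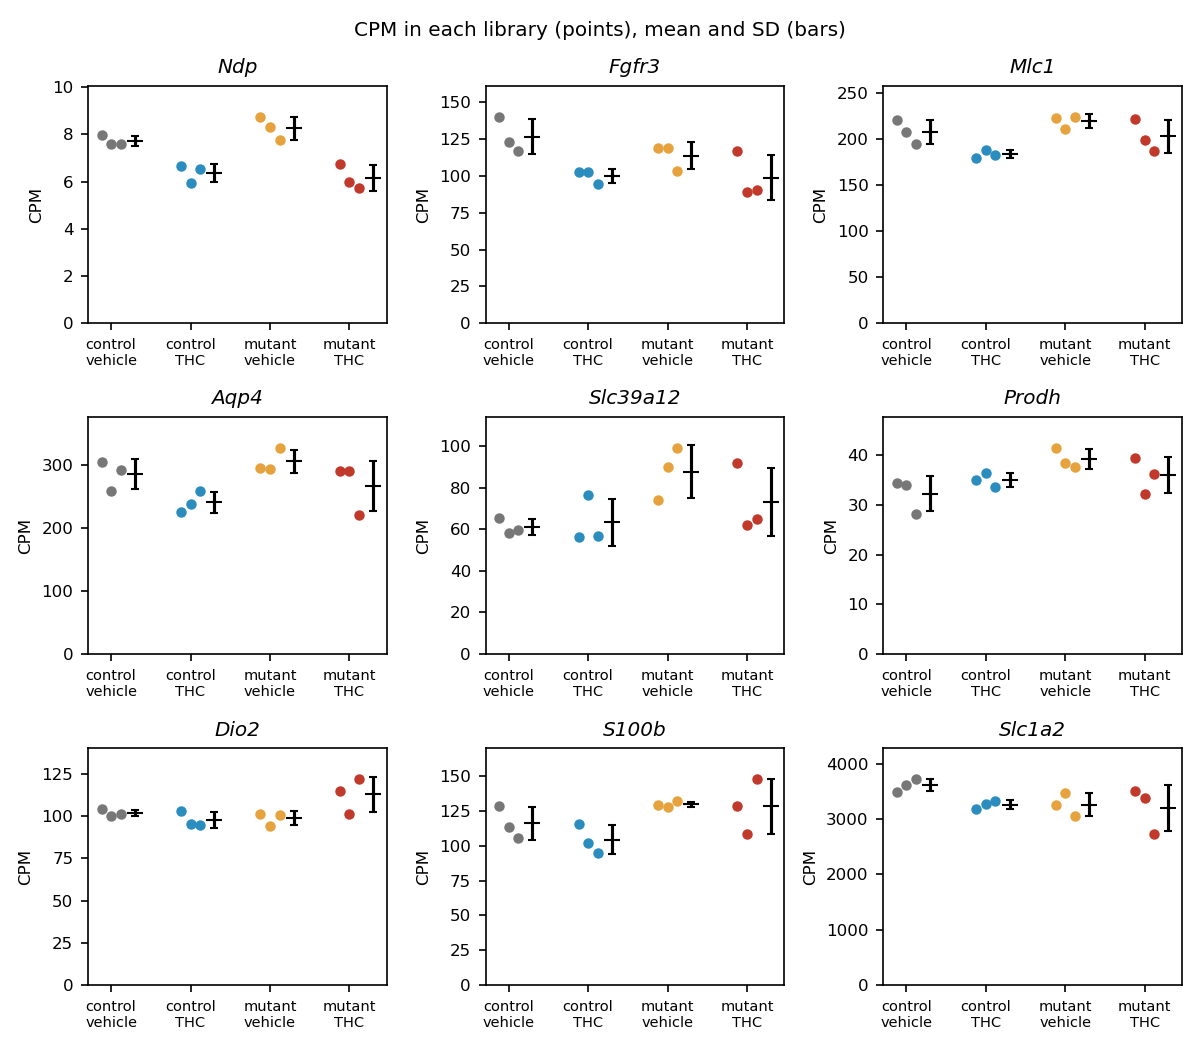
CPM of 9 genes in each library (points, by group) with the group mean and SD (bars, n = 3), on axes that start at 0. Ndp shows no overlap between vehicle and THC, and control THC lies below control vehicle in Fgfr3, Mlc1, Aqp4 and Slc1a2. All genes shown except Fgfr3 and Slc1a2 reach their highest value in a mutant library.

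**Figure D3:**
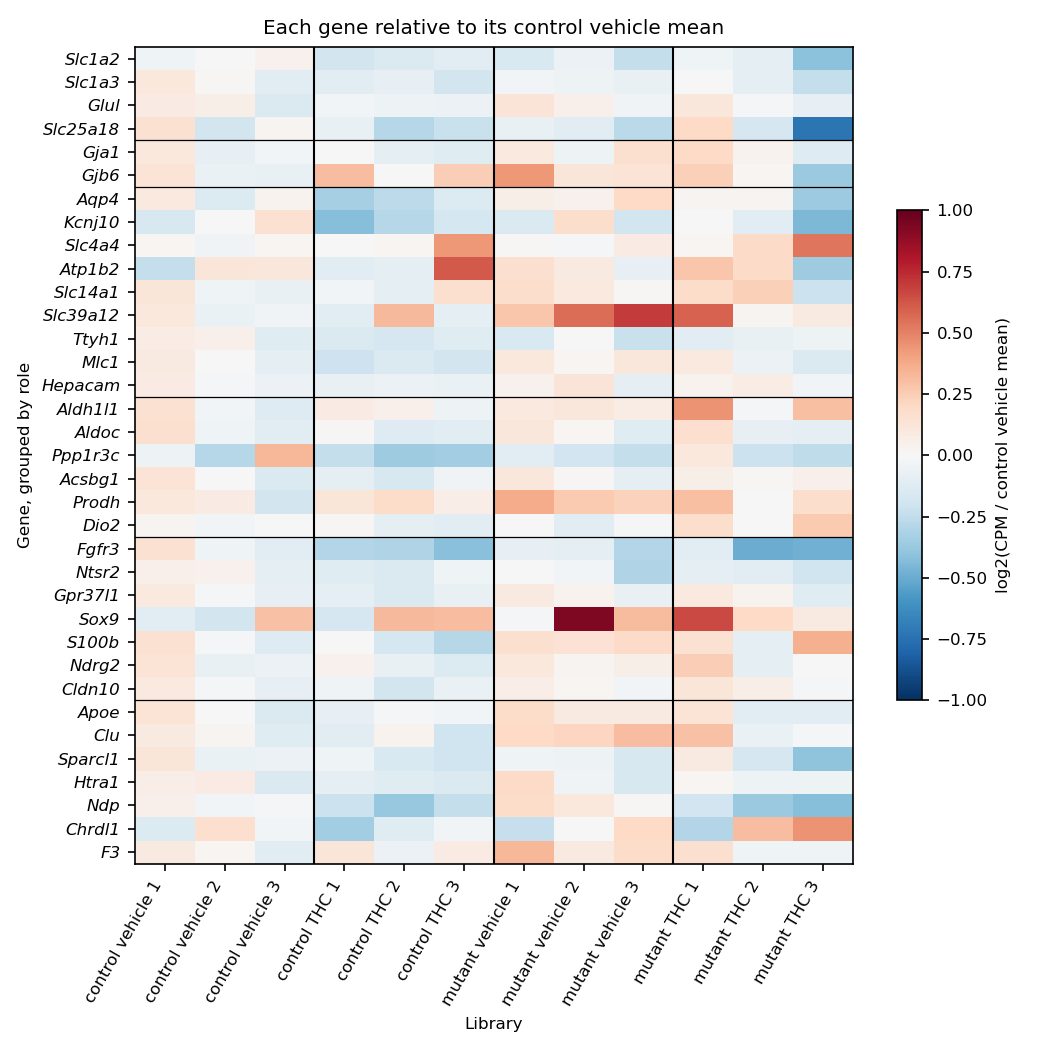
Log2 ratio of each gene's CPM to its control vehicle mean, with genes in rows by role and the 12 libraries in columns by group; blue is lower and red higher. The control THC columns are mostly pale blue, the rows of Ndp and Fgfr3 are blue in the THC columns, and mutant THC 3 has the strongest mix of blue and red.

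The promoters of the genes at either end of these patterns are shown because Ndp and Fgfr3 had the smallest p-values for THC and Aldoc is a metabolic gene whose groups overlapped fully. They are the 250 bases before the first listed start in the RefSeq promoter table (build GRCm38.p6, the assembly of mm10), read 5′ to 3′ on the gene's strand, with motif matches in capitals. Ndp lies on chromosome X from 16885521 to 16911774 on the minus strand, and its promoter is chrX:16911775-16912024. Fgfr3 lies on chromosome 5 from 33721724 to 33737068 on the plus strand, with the promoter chr5:33721474-33721723. Aldoc lies on chromosome 11 from 78323073 to 78327781 on the plus strand, with the promoter chr11:78322823-78323072.
Ndp: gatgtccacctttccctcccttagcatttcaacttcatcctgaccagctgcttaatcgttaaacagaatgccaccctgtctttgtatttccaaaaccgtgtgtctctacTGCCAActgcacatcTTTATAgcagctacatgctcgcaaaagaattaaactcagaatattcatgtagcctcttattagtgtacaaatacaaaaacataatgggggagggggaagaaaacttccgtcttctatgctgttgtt
Fgfr3: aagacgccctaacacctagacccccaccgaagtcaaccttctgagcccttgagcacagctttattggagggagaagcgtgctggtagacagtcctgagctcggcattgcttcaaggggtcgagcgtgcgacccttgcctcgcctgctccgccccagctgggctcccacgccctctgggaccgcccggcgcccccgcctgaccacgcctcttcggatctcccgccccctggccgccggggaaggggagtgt
Aldoc: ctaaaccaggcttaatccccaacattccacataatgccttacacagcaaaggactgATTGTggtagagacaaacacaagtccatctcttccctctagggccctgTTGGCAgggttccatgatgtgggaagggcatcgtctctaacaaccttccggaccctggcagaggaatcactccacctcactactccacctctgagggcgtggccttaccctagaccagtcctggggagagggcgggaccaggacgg

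The 3 motifs searched, on both strands and with no overlap between matches in the printed sequences, were the half-site of nuclear factor I (TTGGCA), the core of SOX factors (ACAAT) and the TATA box (TATAAA). The Ndp promoter had the half-site, in reverse complement, with its first base 141 bases before the start, and the TATA letters, also in reverse complement, 126 bases before it. In Aldoc the half-site began 146 bases and the SOX core, in reverse complement, 194 bases before the start. The Fgfr3 window held none of the 3 and was the richest in G and C, at 66.8% beside 55.2% in Aldoc and 41.2% in Ndp. Of the 28 members in the table, 4 (14.3%) had the half-site, beside 12.5% of 27025 promoters of the same length. The SOX core was in 4 (14.3%) beside 28.3%, and the TATA box in 6 (21.4%) beside 13.0%. A match describes letters only, and none of these shares was tested.

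THC in control mice moved no homeostatic gene past the threshold, and most members had slightly lower levels than under vehicle. With edgeR's quasi-likelihood test and Benjamini-Hochberg adjustment over 15802 genes, 0 of 35 members passed an adjusted p of 0.05 (0% of all genes passed), and DESeq2 and limma-voom called 0 members. The gene with the smallest p was Fgfr3, with a log2 fold change of -0.34 ± 0.11 (SE, 95% interval -0.58 to -0.10, adjusted p = 0.70 by edgeR). Ndp followed at -0.28 ± 0.09 and Mlc1 at -0.18 ± 0.07, both at an adjusted p of 0.70. At an unadjusted p under 0.05 there were 6 members, all with lower levels (Fgfr3, Ndp, Mlc1, Ppp1r3c, Aqp4 and Kcnj10), which is 17.1% of members beside 3.45% of all genes. Groups did not overlap, with THC lower, in 7 members (Slc1a2, Aqp4, Kcnj10, Ttyh1, Mlc1, Fgfr3 and Ndp), or 20.0% beside 8.07%. The gap between the nearest vehicle and THC libraries was narrow in Ttyh1 (322.8 beside 322.5 CPM), Aqp4 (259.7 beside 259.5) and Kcnj10 (66.7 beside 66.1). Log2 fold changes were below 0 in 26 of 35 members, or 74.3% beside 49.9%, and the members' median was -0.10 beside 0.00 for all genes. Aqp4 was at -0.24 ± 0.11, Kcnj10 at -0.30 ± 0.13 and the glycogen gene Ppp1r3c, whose highest value was in control vehicle 3, at -0.33 ± 0.14. The roles were mixed: 4 of the 9 channel and transporter genes were above 0, as was 1 of the 7 receptor and regulator genes. The size of the shift depended on single libraries: the members' median was -0.04 without control vehicle 1, in which 29 of 35 members were above the control vehicle mean. It was -0.14 without control vehicle 3, and it stayed below 0 on every omission of a single library. All 35 intervals lay between -1 and 1, so a change of 2-fold or more is outside the interval of every member, and 27 lay between -0.5 and 0.5.

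In mutant mice THC gave the same low count of calls, and Ndp had the smallest p. EdgeR called 0 of 35 members (0% of all genes), and DESeq2 and limma-voom called 0 members. Ndp had a log2 fold change of -0.43 ± 0.09 (95% interval -0.63 to -0.22, adjusted p = 0.81 by edgeR), a fold of 0.744. Dio2 was next at 0.19 ± 0.07 (adjusted p = 0.81), and F3 was at -0.17 ± 0.09, moving to -0.11 on omission of mutant vehicle 1 and to -0.24 on that of mutant THC 1. Dio2 was at 0.13 without mutant THC 3, the library rich in striatal markers. At an unadjusted p under 0.05, 1 member had a higher level (Dio2, 2.86% beside 2.53% of genes) and 1 a lower level (Ndp, 2.86% beside 3.20%). Non-overlapping groups with THC lower were seen for Aqp4 and Ndp, 5.71% of members beside 4.40% of genes. Log2 fold changes were below 0 in 26 members (74.3% beside 52.5%), with a median of -0.03 beside -0.01 for all genes. Leaving out mutant THC 3 gave a median of 0.02, with 14 members below 0, and leaving out mutant THC 1 gave -0.11, so its sign rests on single libraries. All 35 intervals lay between -1 and 1, and 29 between -0.5 and 0.5.

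Averaged over both genotypes, the THC effect was again below the threshold for every member with edgeR, and DESeq2 called 1 member. With edgeR 0 of 35 passed (0% of all genes) and limma-voom called 0. Ndp was at -0.35 ± 0.07 (95% interval -0.50 to -0.21, fold 0.784, adjusted p = 0.79 by edgeR), with lower levels in 6 of 6 THC libraries. DESeq2 gave Ndp the same fold change at an adjusted p of 0.038, and called 3 of 15802 genes. Over the omissions of single libraries the Ndp value ran from -0.38 to -0.32, and it was -0.35 without mutant vehicle 3 and mutant THC 3 and with the choroid plexus score as a covariate. Fgfr3 was at -0.27 ± 0.08, Mlc1 at -0.15 ± 0.05, Aqp4 at -0.22 ± 0.08 and Kcnj10 at -0.21 ± 0.09, each at an adjusted p of 0.79. These 5 genes are the members at an unadjusted p under 0.05, all with lower levels, or 14.3% beside 3.09% of genes. Log2 fold changes were below 0 in 28 members (80.0% beside 50.8%), with a median of -0.06 that was -0.03 without control vehicle 1, -0.04 without mutant vehicle 1 or mutant THC 3 and -0.09 without mutant THC 1. All 35 intervals lay between -0.5 and 0.5, the lowest bound being that of Ndp.

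Between genotypes under vehicle no member passed the threshold, and the share at an unadjusted p under 0.05 was near that of all genes. A zinc importer, a proline enzyme and clusterin had the smallest p, with higher levels in the mutant libraries. EdgeR called 0 of 35 members (0.00633% of all genes passed), and DESeq2 and limma-voom called 0 members, although DESeq2 called 788 genes. Prodh was at 0.28 ± 0.09 (95% interval 0.08 to 0.48, adjusted p = 0.17 by edgeR), Slc39a12 at 0.52 ± 0.17 (0.15 to 0.89, adjusted p = 0.17) and Clu at 0.24 ± 0.10 (0.02 to 0.46, adjusted p = 0.26). Slc39a12 passed at an adjusted p of 0.045 by edgeR when only these 2 groups were fitted, where 523 of 15529 genes passed. Members with an unadjusted p under 0.05 numbered 4, all with higher levels (F3 is the fourth, at 0.20 ± 0.09), which is 11.4% beside 11.2% of genes and so near the background. Groups did not overlap in 3 members with mutants higher (Slc39a12, Prodh and Clu, 8.57% beside 15.3%) and in 1 with mutants lower (Slc1a2, 2.86% beside 12.7%). Log2 fold changes were above 0 in 24 members (68.6% beside 48.9%), with a median of 0.03 beside -0.01. The median was 0.01 without control THC 1, 0.06 without mutant vehicle 3 and 0.08 without control vehicle 1, and the members above 0 numbered 18 without control vehicle 3. All 3 mutant vehicle libraries and none of the control vehicle libraries had high choroid plexus markers, with summed levels of 4008 to 11148 CPM beside 65.8 to 139 CPM. With the choroid plexus score as a covariate, Slc39a12 was at 0.02, Clu at 0.01 and Prodh at 0.15, so that these differences and the choroid plexus level cannot be told apart in this comparison. Intervals lay between -1 and 1 for 34 members, Sox9 being the exception with an upper bound of 1.0.

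Under THC, mutants had 27 of 35 members above the control level, again with no call. EdgeR called 0 members (0.00633% of genes), as did DESeq2 and limma-voom. Dio2 was at 0.21 ± 0.07 (95% interval 0.06 to 0.36, adjusted p = 0.55 by edgeR), S100b at 0.30 ± 0.11 (0.05 to 0.55) and Cldn10 at 0.15 ± 0.06. Without mutant THC 3, Dio2 was at 0.15 and S100b at 0.18. These 3 were the members at an unadjusted p under 0.05, all higher in mutants, or 8.57% beside 4.71% of genes. Groups did not overlap, with mutants higher, in Ttyh1, Hepacam, Acsbg1, Cldn10 and Htra1 (14.3% beside 4.83%). In Ttyh1 the gap was narrow, with 323.5 CPM in mutant THC 1 beside 322.5 in control THC 3. The share above 0 was 77.1% beside 51.5%, with a median of 0.09 beside 0.01 for all genes. The median depended on 1 library, being 0.01 without mutant THC 1 and 0.13 without mutant THC 3. This comparison shares the control THC libraries with the THC effect in controls, where most members were low, so these comparisons are not independent. All 35 intervals lay between -1 and 1, and 28 between -0.5 and 0.5.

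Averaged over treatments, the genotype effect gave 0 calls among members with edgeR (0.00633% of genes), DESeq2 and limma-voom. Slc39a12 was at 0.36 ± 0.12 (adjusted p = 0.16 by edgeR), S100b at 0.23 ± 0.08 (adjusted p = 0.17) and Clu at 0.20 ± 0.07 (adjusted p = 0.17), followed by Prodh at 0.16 ± 0.06 and Mlc1 at 0.11 ± 0.05. Without mutant THC 2, the mutant library with low Ttr, 2 members were among the 942 of 15940 genes that passed. These were S100b (0.29, adjusted p = 0.044 by edgeR) and Aldh1l1. At an unadjusted p under 0.05 there were 5 members, all with higher levels, or 14.3% beside 12.2% of genes. Log2 fold changes were above 0 in 27 members (77.1% beside 50.7%), with a median of 0.06 beside 0.00 for all genes, which was 0.04 without mutant THC 1. With the choroid plexus score as a covariate Slc39a12 was at 0.05, Clu at 0.05 and S100b at 0.15.

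**Figure D4:**
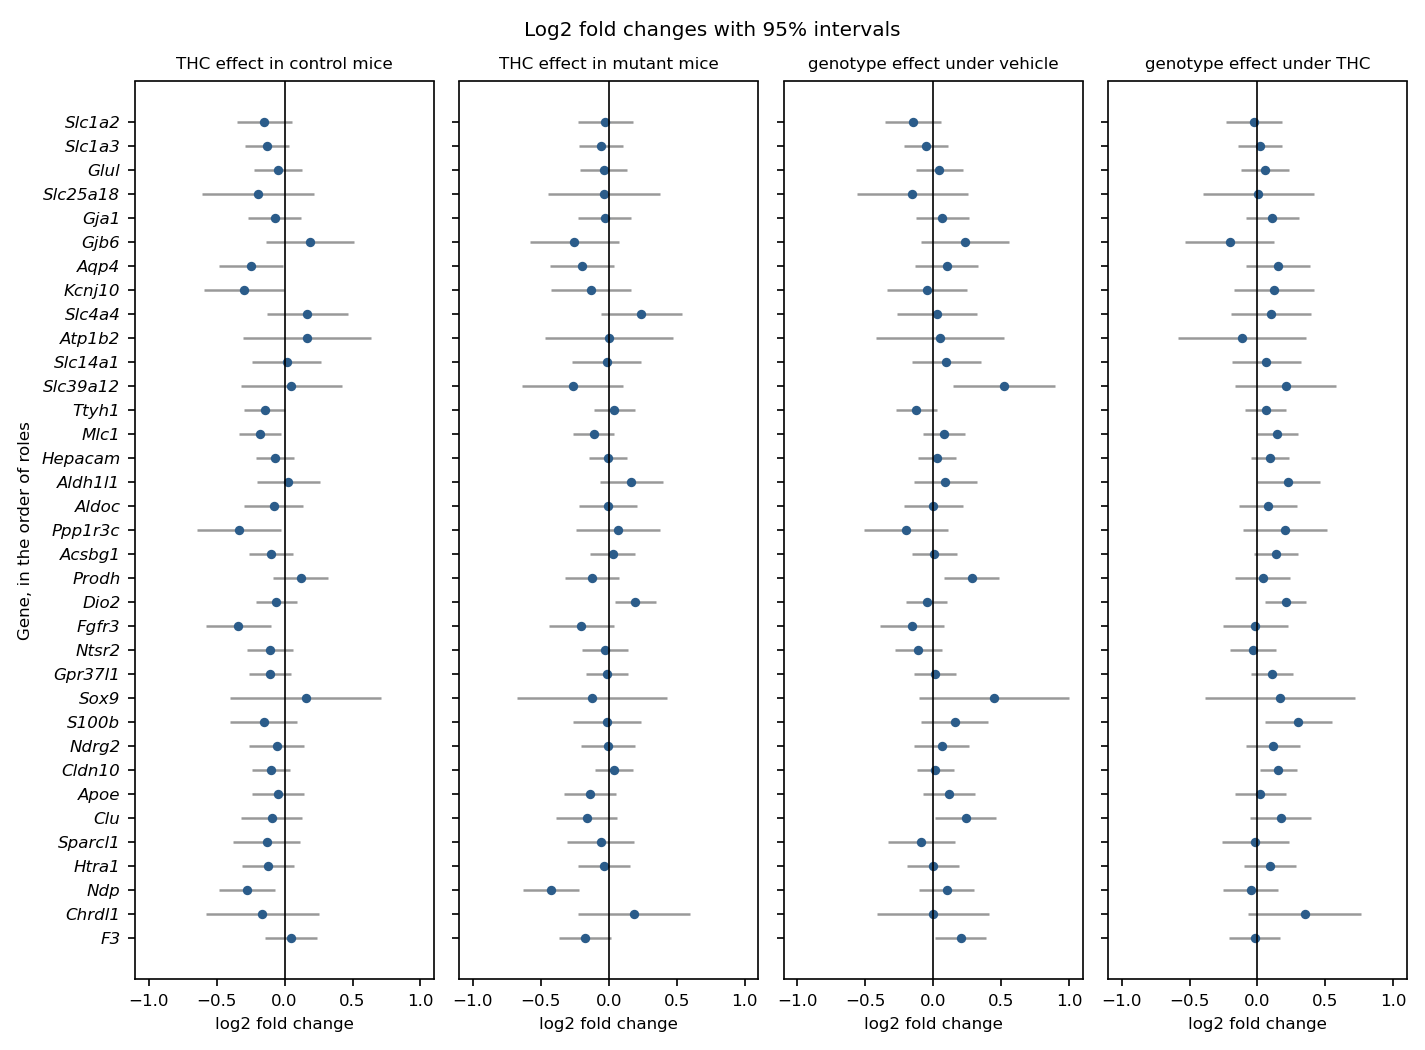
Log2 fold change of each gene (points) with its 95% interval (lines) in the THC effect in each genotype and the genotype effect under each treatment, with genes in the order of their roles. Most intervals cross 0; the exceptions include Ndp in both THC panels, Fgfr3 in controls, Slc39a12 and Prodh under vehicle and Dio2 in mutants.

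The interaction asks whether THC acted differently in the 2 genotypes, and for no member did it pass. EdgeR called 0 of 35 (0% of genes), as did DESeq2 and limma-voom. Dio2 had the smallest p, at 0.25 ± 0.10 (95% interval 0.04 to 0.47, adjusted p = 0.71 by edgeR), from -0.06 ± 0.07 in controls and 0.19 ± 0.07 in mutants. It was the 1 member at an unadjusted p under 0.05 (2.86% beside 2.16% of genes with a positive value). Gjb6 was at -0.44 ± 0.21 (-0.90 to 0.02), from 0.19 ± 0.15 in controls and -0.25 ± 0.15 in mutants, and at -0.29 without mutant THC 3. Ppp1r3c was at 0.40 ± 0.20, and at 0.21 without control vehicle 3. For Ndp the interaction was -0.15 ± 0.13 (-0.44 to 0.14), so the data leave room for a difference between genotypes of either sign. Members above 0 numbered 25 (71.4% beside 51.3%), with a median of 0.07 that was -0.00 without mutant THC 1. Intervals lay between -1 and 1 for 34 members, and Sox9 reached -1.07.

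Partner genes of the same pathways, 63 in 6 lists, had 0 calls in all 7 comparisons by edgeR, with log2 fold changes from -0.96 (an interaction) to 1.02. These lists were made for the roles above: transmitter and amino acid handling, the endfoot anchoring complex, ion pumps and connexins, glycogen and lactate, glial transcription factors, and lipid and sterol handling. After THC, 29 were above and 34 below 0 in controls. At an unadjusted p under 0.05 there were 2 higher and 2 lower, or 3.17% each beside 3.55% and 3.45% of all genes. In mutants 23 were above and 40 below, with 6 at that level, all with lower values (9.52% beside 3.20%). Between genotypes under vehicle 42 were above and 21 below, with 9 higher (14.3% beside 11.2%) and 2 lower (3.17% beside 6.63%) at that level. Under THC 34 were above and 29 below, with 3 higher (4.76% beside 4.71%) and 4 lower (6.35% beside 4.27%).

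The partner with the smallest p is given for 5 of these lists. Slc38a2, a glutamine transporter gene, was at 209, 161 and 170 CPM in mutants on vehicle and 145, 115 and 108 in mutants on THC (-0.56 ± 0.14, adjusted p = 0.81 by edgeR). Sntb2, a syntrophin of the endfoot complex, had an interaction of -0.55 ± 0.14 (adjusted p = 0.59). Hes5, a Notch target and glial transcription factor gene, was at 10.2, 8.09 and 8.5 CPM in control vehicle and 6.66, 6.03 and 4.77 in control THC (-0.62 ± 0.18, adjusted p = 0.70). None of the 3 passed. Slc12a2, a chloride cotransporter gene that the choroid plexus also expresses, was at 1.02 ± 0.34 for genotype under vehicle (adjusted p = 0.18), with 210 to 332 CPM in the libraries with high Ttr and 116 to 147 in the others. The cholesterol exporter gene Abca1 was at 0.32 ± 0.11 in the same comparison (adjusted p = 0.19).

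Reactive astrocyte genes, of which 31 of 34 were tested, had none past the threshold by edgeR. After THC their median log2 fold change was 0.27 in controls, with 24 above and 7 below 0, where the homeostatic median was -0.10. In mutants it was -0.33, with 5 above and 26 below, where the homeostatic median was -0.03. Without mutant vehicle 3 and mutant THC 3 the reactive median in mutants was -0.12. Under vehicle the reactive genes had a median of 0.27 for genotype (26 above, 5 below), beside 0.03 for the homeostatic genes, and under THC -0.15 (11 above, 20 below), beside 0.09. Without mutant THC 3 the medians under THC were -0.08 and 0.13. Of all genes, 50.1% were above 0 for THC in controls and 47.5% in mutants. For genotype these shares were 48.9% under vehicle and 51.5% under THC. With the choroid plexus score as a covariate, the reactive medians were 0.35 for THC in controls and -0.31 in mutants. They were 0.46 for genotype under vehicle and -0.14 under THC. The smallest p of the list was that of Cp, the ceruloplasmin gene, for genotype under vehicle (0.73 ± 0.12, adjusted p = 0.16 by edgeR). Cp was at 23.5, 18.9 and 19.3 CPM in control vehicle and 35.7, 31.1 and 35.2 in mutant vehicle. It was at 27.9, 31.2 and 30.5 CPM in control THC, also above control vehicle without overlap, and at 29.7, 23.7 and 22.1 in mutant THC. Gfap, the filament gene of reactive astrocytes, was at 471, 443 and 414 CPM in controls on vehicle, 384, 377 and 411 in controls on THC, 551, 484 and 463 in mutants on vehicle and 469, 432 and 285 in mutants on THC. Gfap thus lay lower after THC in control libraries without overlap, and its lowest value was in mutant THC 3. The comparisons share groups, so the medians are set side by side without a test of the contrast between the lists.

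By library, the members moved together to a modest degree. The median over the 35 genes of the log2 ratio to the control vehicle mean was 0.09, -0.02 and -0.07 in controls on vehicle, -0.09, -0.12 and -0.10 in controls on THC, 0.09, 0.03 and -0.02 in mutants on vehicle and 0.12, -0.04 and -0.10 in mutants on THC. All 3 control THC libraries lay below all 3 control vehicle libraries, while the mutant THC libraries spanned from the highest to nearly the lowest value of the 12. Mutant THC 3 held the lowest value of 11 of the 35 genes, and mutant vehicle 1 and mutant THC 1 held the highest value of 7 each. The members' summed level was 14729 to 16096 CPM in controls on vehicle, 14242 to 14384 in controls on THC, 14731 to 15634 in mutant vehicle and 13470 to 16255 in mutant THC.

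Markers of other cells differed between the same libraries, and their part in the results was not tested beyond the fits given above. Striatal neuron markers (10 genes) summed to 4599 CPM in mutant THC 3, 580 in mutant vehicle 3, 175 to 181 in control vehicle and 170 to 197 in control THC. General neuron markers were lowest in mutant THC 3, at 5783 CPM beside 6294 to 7852 elsewhere. Choroid plexus markers (14 genes) summed to 99.2 to 5800 CPM in control THC and 93.4 to 6948 in mutant THC, and oligodendrocyte markers (10 genes) to 4705 to 5968 CPM in controls on vehicle, 3644 to 5420 in controls on THC, 6512 to 7421 in mutant vehicle and 4812 to 7730 in mutant THC. Microglial markers stayed at 465 to 566 CPM in all groups, and endothelial markers were at 222 to 238 CPM in controls on vehicle, 257 to 261 in controls on THC, 231 to 246 in mutant vehicle and 243 to 276 in mutant THC. Mural and meningeal markers were at 233 to 250.1 CPM in controls on vehicle, 288 to 326 in controls on THC, 346 to 394 in mutant vehicle and 220 to 362 in mutant THC. Ependymal markers summed to at most 118 CPM, in mutant vehicle. No marker with the smallest p of its list passed (adjusted p from 0.16 to 0.79 by edgeR). For genotype under vehicle these were Wfdc2 of the choroid plexus at 5.66 ± 1.58, on 2 to 5 counts per control vehicle library, and Foxj1 of the ependyma at 1.44 ± 0.43. For genotype averaged over treatments they were Ppp1r1b of striatal neurons at 2.24 ± 0.72, Ugt8a of oligodendrocytes at 0.56 ± 0.13 and C1qa of microglia at 0.17 ± 0.05. Vwf of the endothelium was at 0.85 ± 0.19 for THC in controls, Stmn2 of neurons at -0.27 ± 0.10 for THC averaged over genotypes and Col1a2 of mural and meningeal cells at -1.61 ± 0.40 for the interaction.

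**Figure D5:**
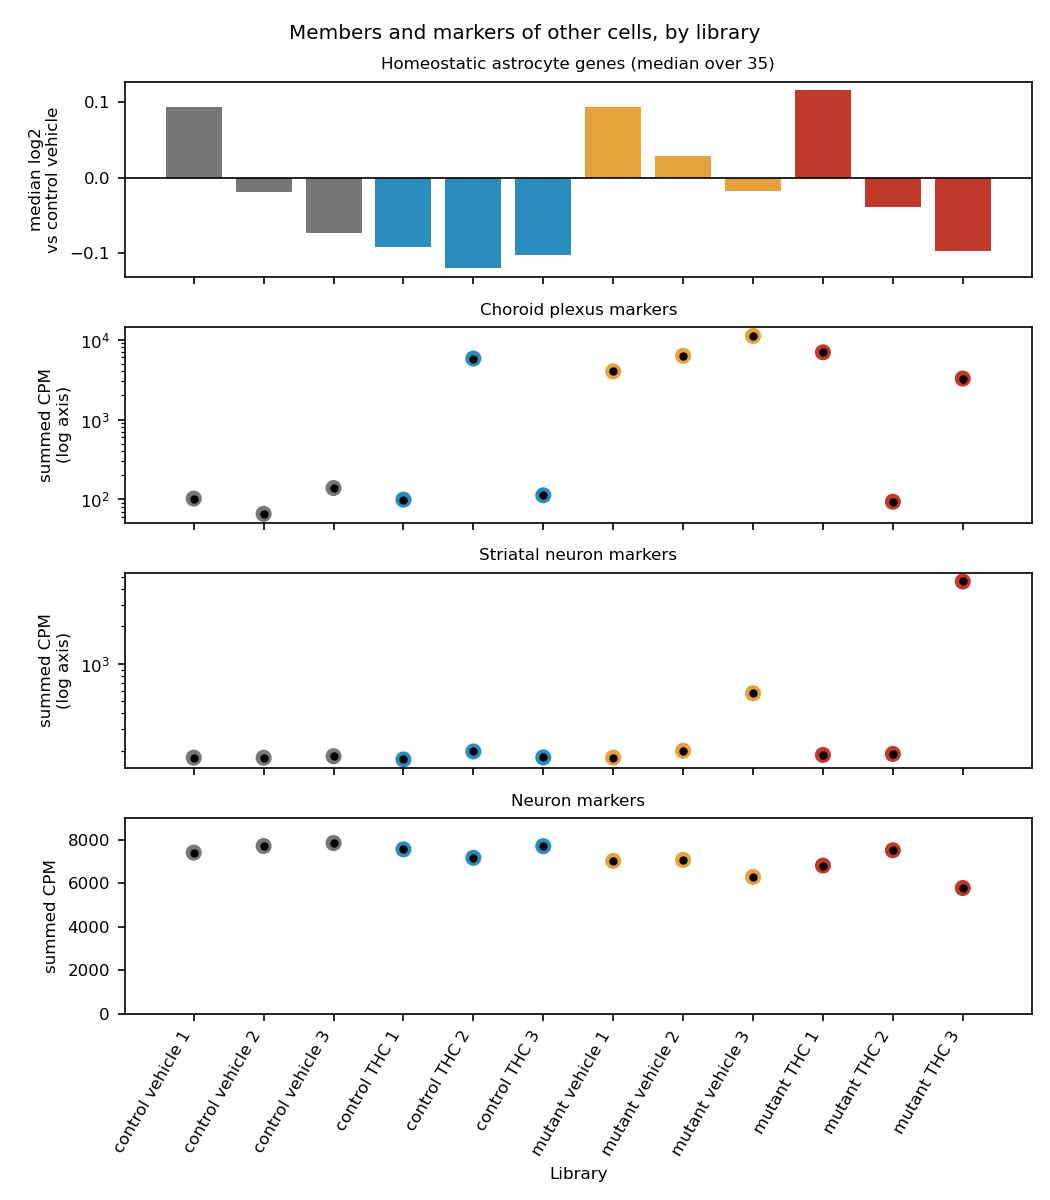
For each of the 12 libraries, the median log2 ratio of the 35 genes to their control vehicle mean (bars) and the summed CPM of choroid plexus markers (log axis), striatal neuron markers (log axis) and neuron markers (points, coloured by group). The control THC bars are all below 0, the choroid plexus points split into a high and a low set of 6 libraries each, and mutant THC 3 is highest in striatal and lowest in neuron markers.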

How the data were processed

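Hippocampal total RNA was depleted of ribosomal RNA and sequenced as read pairs, per the labels' protocols. In the 1 table the authors deposited, each of 12 libraries has a column of expected counts by gene, unscaled for depth and length. RSEM 1.2.21, Bowtie2 2.2.2, CASAVA 1.8.4, FastQC and edgeR 3.10.2 are listed, with the build mm10, among the submitters' processing notes. RSEM shares reads between genes, so 27.2% to 29.4% of values per library were not whole, and 34 members had such values. The use of strand in counting is not given in any source used here. Exons of 6 members (Slc1a2, Glul, Ttyh1, Aldh1l1, Dio2 and Fgfr3) overlap another gene in GENCODE vM21, so those counts may mix. Every column matched 1 sample, and 0 columns were unused. RefSeq GRCm38.p6 gave symbols for 23018 rows and GENCODE for 129, while 235 had none.

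Expected counts were rounded, filtered with filterByExpr, which kept 15802 genes, and given TMM factors of 0.989 to 1.01. A quasi-likelihood F test in edgeR 4.0.16 (R 4.3.3, glmQLFit with robust estimation) was fitted to all 12 libraries in 1 model of 4 group means with 8 residual degrees of freedom. Contrasts gave 7 comparisons: THC in each genotype and averaged, genotype under each treatment and averaged, and the interaction. P-values were adjusted by Benjamini-Hochberg over all genes, with 0.05 as the threshold. SE is the log2 fold change over the root of F. Levels are CPM, divided by the mean transcript length where genes are compared.

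The members and all lists were chosen with earlier results of these data known. All members are named. Values in every library are given for the 3 members with the smallest p in each comparison and for Slc1a2, Gja1, Aqp4, Aldoc, Sox9 and Apoe, and of each other list the gene with the smallest p is named, except for 1 list, where it is not reported here. Kcnj10 and other members named beside these were chosen after their values were seen. Alternatives were DESeq2 1.42.0, its size factors, limma-voom (limma 3.58.1), no filter, only the 2 groups compared, a choroid plexus score (mean log2 CPM of 14 markers) as covariate, mutant vehicle 3 and mutant THC 3 left out, and each library left out. The code was tested on simulated data.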

Additional observations from a re-analysis of the deposited data

How the results depend on the processing

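Under 19 alternatives every fold change of the 3 members with the smallest p in each comparison kept its direction. These members were picked by p in the same libraries that the alternatives reuse, so a kept direction was likely beforehand. Their size could change: under vehicle the genotype values of Slc39a12 and Clu lost most of theirs with the choroid plexus score as a covariate. The count of members past the threshold, 0 in all 7 comparisons by edgeR, became 1 for genotype under vehicle when only the 2 groups were fitted (Slc39a12, 0.52, adjusted p = 0.045) and 1 for THC averaged over genotypes with DESeq2 (Ndp, -0.35, adjusted p = 0.038). Of all genes, 523 of 15529 passed in the first of these fits and 3 of 15802 in the second. Leaving out single libraries gave 0 to 2 members for genotype averaged over treatments, the 2 being S100b and Aldh1l1. They passed without mutant THC 2, where 942 of 15940 genes did. The members' median for genotype under THC ran from 0.013 without mutant THC 1 to 0.13 without mutant THC 3, beside a spread of 0.078 (SD) between libraries of a group. The medians for THC in mutants (-0.11 to 0.02) and for the interaction (-0.00 to 0.11) changed sign over the omissions. Of the alternative values for single named genes, 387 kept their direction and side of the threshold, whatever their size, and 3 newly passed it. The cause of these differences was not tested.

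Over all genes DESeq2 called 12 for THC in controls and 3 in mutants, where edgeR and limma-voom called 0. For genotype DESeq2 called 788 under vehicle and 7 under THC, where edgeR called 1 each and limma-voom 0, and for the interaction 34, where both others called 0. For the averaged effects DESeq2 called 3 (THC) and 785 (genotype). Genotype averaged over treatments gave 942 genes without mutant THC 2 and genotype under vehicle 523 when only these groups were fitted. The median SE of the members was 0.09 in each comparison of 2 groups. No paired analysis was possible because the numbers in the library titles do not recur between groups.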
